A study of Mus musculus with 2 samples.

Results

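The miR-148 family, which includes miR-152, and the miR-130 family, which includes miR-301, are 2 groups of microRNAs, each held together by a shared seed, the stretch of bases 2 to 8 with which a microRNA pairs to its targets. They were examined in small RNA (below 30 nt) sequenced from the left cerebral cortex of female B6CASTF1/J mice aged 14 days. The members are 7 of the 2202 annotated microRNA loci, found by their identifiers in the GENCODE M21 annotation: Mir148a, Mir148b and Mir152 of the miR-148 family, and Mir130a, Mir130b, Mir301 and Mir301b of the miR-130 family. The families were chosen because Mir148a and Mir301 differed strongly between the libraries, so every difference between the libraries below is a description and no test was made of it. The labels give 1 group of 2 biological replicates, with no treatment, altered genotype or second tissue. Both replicates carry the same donor record, several females are mentioned for replicate 1 and a single female for replicate 2, and the spread between them may be in part technical.

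MicroRNAs are cut from hairpin precursors and lower the output of messenger RNAs that carry sites matching their seed. MicroRNAs with the same seed can bind many of the same sites, so the summed level of the strands with that seed describes the pool of regulators for those sites. The miR-148 family is known for repressing DNA methyltransferase 1 and, in liver, the low density lipoprotein receptor. The miR-130 family is known for repressing the fat cell regulator Pparg.

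The mature sequences of the 3p arm are shown first, because the relatedness of the 7 loci rests on them. All 7 loci were found in the RefSeq microRNA table (build GRCm38.p6), and the hairpin of each spans the same interval as in GENCODE M21. The seed is in capitals, and the 3p strand is listed for 6 of the 7 loci:
miR-148a-3p: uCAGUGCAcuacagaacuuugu
miR-148b-3p: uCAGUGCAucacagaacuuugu
miR-152-3p: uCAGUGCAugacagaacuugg
miR-130a-3p: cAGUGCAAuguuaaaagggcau
miR-130b-3p: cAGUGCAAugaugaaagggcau
miR-301a-3p: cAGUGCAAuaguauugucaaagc

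The 2 seeds, CAGUGCA and AGUGCAA, are offset by 1 base. The run CAGUGCA therefore stands at bases 2 to 8 of the miR-148 strands and at bases 1 to 7 of the miR-130 strands. Read on the RNA strand only, it starts at base 1 or 2 in 10 of the 1738 mature microRNAs of the table (0.575%). Counted from the 5′ end, miR-148b-3p differs from miR-148a-3p by C9U and U10C, just past the seed. The strand of miR-152 differs from miR-148a-3p by C9U, U10G and U20G over the 21 bases compared. The strand of miR-130b differs from miR-130a-3p by U11A and A13G, whereas miR-301a-3p differs from miR-130a-3p at 10 of 22 bases, all outside the seed.

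Mir301b is related to Mir301 over the whole hairpin, with 70.7% identity in a global alignment, the highest of the 9 pairs of loci within the families. Their hairpins are shown because Mir301b is compared with Mir301 in the results, with the run CAGUGCA in capitals:
Mir301: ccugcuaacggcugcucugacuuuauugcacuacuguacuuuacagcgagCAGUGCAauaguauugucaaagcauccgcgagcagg
Mir301b: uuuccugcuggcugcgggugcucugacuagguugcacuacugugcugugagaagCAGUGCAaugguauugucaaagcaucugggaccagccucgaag
Their 5p strands also share a seed, CUCUGAC, as the capitals show:
miR-301a-5p: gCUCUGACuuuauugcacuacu
miR-301b-5p: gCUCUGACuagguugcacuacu

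The deposited counts are per hairpin locus and do not separate the arms. The longest run that a member shares with any other annotated microRNA locus, on either strand, was between 13 nt (Mir152) and 17 nt (Mir130a, shared with Mir6389). No member holds a run of 20 nt in common with another locus. Multiply mapped reads, which enter no locus count, were 40.6% of the reads of replicate 1 and 37.9% of those of replicate 2. All 7 loci had the same counts with and without regard to strand, and 0 reads on the opposite strand.

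Gene-assigned reads, counted on the RNA strand, numbered 2740332 in replicate 1 and 3207941 in replicate 2. A level is a normalised read count (CPM), where these gene-assigned reads are scaled to 1000000 per library, with exact Poisson 95% intervals for counting error only. Differences are log2 ratios of replicate 2 over replicate 1 after scaling by the trimmed mean of M values (TMM), so they are lower than log2 ratios of CPM. This matters most for small ratios: Mir130a had 0.14 after TMM and 0.31 by library total, as in CPM. Their intervals are exact binomial 95% intervals and likewise leave out the spread between animals or preparations. Of the 7 members 6 had at least 10 reads in each library, a level called detected below, as did 389 loci in all. Mir301b was the exception.

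The brain origin of the tissue, given by the labels, was set beside microRNA lists of single cell types. The 12 neuron loci, of which 8 were detected, summed to 33390 CPM in replicate 1, against 42520 CPM for the other library. Mir124a-1, Mir124a-2, Mir124a-3 and Mir9-2 were not detected, so the sum says little about them. Within the list 1 detected locus was at least 2-fold higher in replicate 2 (Mir128-1, log2 ratio 1.32) and 1 at least 2-fold lower (Mir138-1, −1.07). The pairs of sums that follow give replicate 1 first. The muscle list of 5 loci summed to 28.8 and 31.2 CPM, all from Mir206 (79 and 100 reads). Mir1a-1, Mir1a-2, Mir133a-1 and Mir133a-2 had 0 reads in both libraries. Multiply mapped reads enter no locus count, so loci with near-identical copies can stand at 0 in any tissue. These 0 values therefore do not show that muscle microRNAs were absent. The sums of several lists differed between the libraries along with the members. The 3 oligodendrocyte loci, all detected, summed to 4275 and 1477 CPM, the 3 endothelial and mural loci, all detected, to 21220 and 13610 CPM, and the 3 erythroid loci, all detected, to 976 and 585 CPM. The 4 microglial and leukocyte loci (3 detected) summed to 691 and 1233 CPM, the 7 epithelial loci (4 detected) to 130 and 253 CPM, the 2 choroid plexus loci (1 detected) to 447 and 899 CPM, and the 6 liver and pancreas loci (4 detected) to 283 and 190 CPM. Loci within a list did not all follow its sum. Mir126a (16741 and 9390 CPM) and Mir143 (4345 and 4028 CPM) were lower in replicate 2, whereas Mir145a of their list was higher (130 and 188 CPM). Of the erythroid loci Mir451a (908 and 510 CPM) and Mir486 were lower and Mir144 higher (43.4 and 53.6 CPM). Of the detected microglial and leukocyte loci Mir150 (518 and 1068 CPM) and Mir142 were higher and Mir155 lower (121 and 82.6 CPM). Apart from the muscle list, no listed locus was at 0 in both libraries. The part of these lists in the members' differences was not tested. In whole tissue, fewer cells of a type and less RNA per cell cannot be told apart.

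Across both families Mir130a was by far the most abundant locus. It lies on chromosome 2, 84741115 to 84741178, on the minus strand, with no annotated host gene. It had 9972 reads in replicate 1 and 14479 in replicate 2, that is 3639 CPM (interval 3568 to 3711) and 4513 CPM (interval 4440 to 4588). Its mean of 4076 ± 618 CPM (SD, n = 2) placed it at rank 46 of the 2202 loci.

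Mir301 followed at 589 ± 569 CPM, a spread nearly as large as the mean. This locus lies on chromosome 11, 87113004 to 87113089, on the plus strand, in an intron of Ska2, which encodes a spindle and kinetochore protein. It had 512 reads (187 CPM) in replicate 1 and 3182 reads (992 CPM) in replicate 2, and moved from rank 178 to rank 105. Mir130b, on chromosome 16, 17124061 to 17124142, on the minus strand, had 597 reads (218 CPM) and 847 reads (264 CPM), a mean of 241 ± 32.7 CPM. The order of these loci thus differed between the libraries. Mir130b was above Mir301 in replicate 1, with 1.17 reads for each read of Mir301, and below it in replicate 2, with 0.266 reads.

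Mir301b, the least abundant member, had 5 reads (1.83 CPM, interval 0.592 to 4.26) in replicate 1 and 29 reads (9.04 CPM, interval 6.05 to 13.0) in replicate 2. It lies on chromosome 16, 17124400 to 17124496, on the same strand as Mir130b and 257 nt from it, and both lie in an intron of the protein-coding gene 2610318N02Rik. Mir130b thus had 119 reads for each read of its neighbour in replicate 1 and 29.2 in replicate 2.

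The miR-148 family was scarcer. Mir148a (chromosome 6, 51269812 to 51269910, minus strand, no annotated host gene) had 97 reads (35.4 CPM, interval 28.7 to 43.2) in replicate 1 and 535 reads (167 CPM, interval 153 to 182) in replicate 2. Mir148b lies on chromosome 15, 103285125 to 103285221, on the plus strand, in an intron of Copz1, and had 148 reads (54.0 CPM) and 296 reads (92.3 CPM). Mir152 lies on chromosome 11, 96850393 to 96850465, on the plus strand, in an intron of Copz2, and had 29 reads (10.6 CPM) and 130 reads (40.5 CPM). The hosts are related to each other as well, since Copz1 and Copz2 encode zeta subunits of the coatomer, the coat of vesicles between the Golgi and the endoplasmic reticulum. Mir148b was the leading member of its family in replicate 1 and Mir148a in replicate 2. Their means of 73.1 ± 27.1 CPM and 101 ± 92.9 CPM therefore give no order that held in both libraries. Divided by the annotated length of each locus, mean levels ran from 63.7 CPM per nt for Mir130a to 0.056 for Mir301b, in the same order as without this division.

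**Figure D1:**
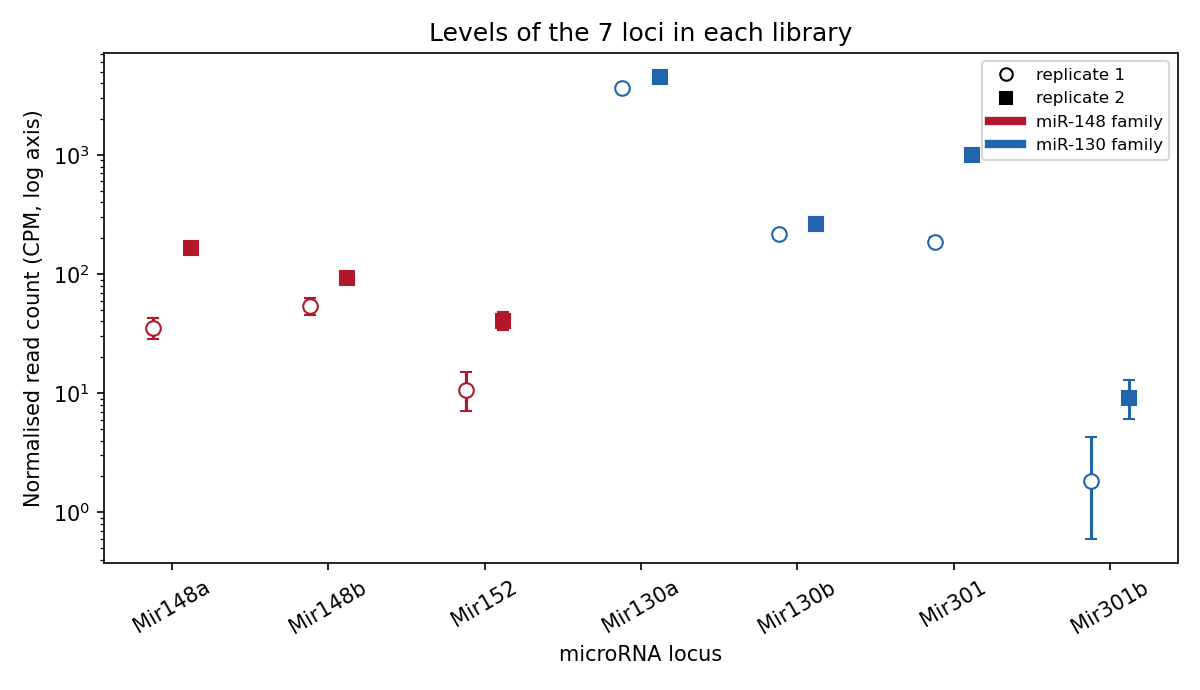
Normalised read counts (CPM, log axis) of the 7 loci, with open circles for replicate 1, filled squares for replicate 2 and exact Poisson 95% intervals. Replicate 2 is above replicate 1 at each locus, by little for Mir130a (3639 and 4513 CPM) and Mir130b (218 and 264 CPM), and the order of Mir301 and Mir130b, and of Mir148a and Mir148b, changes between the libraries.

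A further 4 loci encode a mature strand with the seed AGUGCAA in the RefSeq table, Mir130c, Mir721, Mir6341 and Mir6389. Each had 0 reads in both libraries, where 3 reads would be 1.09 CPM in replicate 1 and 0.935 CPM in replicate 2. Levels below these could have been missed, and multiply mapped reads enter no count. Mir721 lies in an intron of Cux1. The strands of 3 of them, with the seed in capitals, show how far the seed is shared beyond the members:
miR-130c: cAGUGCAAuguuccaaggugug
miR-721: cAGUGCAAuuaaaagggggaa
miR-6341: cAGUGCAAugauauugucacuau
No locus outside the members has the seed CAGUGCA in this table.

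The question set for the families was whether relatives of Mir148a and Mir301 shift together between the libraries. Some did and some did not. Of the 7 members 4 were at least 2-fold higher in replicate 2, and the other 3 were less than 2-fold apart. Mir148a and Mir301 are among the 4, and their difference was given by the choice of the families. The relatives past 2-fold were Mir152 (log2 ratio 1.76) and Mir301b (2.14, not detected). Those below 2-fold were Mir148b (0.60), Mir130a (0.14) and Mir130b (0.10). At least 2-fold higher values were found at 6.43% of the 389 detected loci (25 loci), and at least 2-fold lower ones at 4.88% (19 loci), which makes 11.3% in either direction. The families were chosen by the difference between the libraries at Mir148a and Mir301, and the other members came in as their relatives. Nothing is therefore read from the comparison of these shares. At 1.5-fold, 5 members were apart, all higher in replicate 2, beside 18.3% of detected loci higher and 32.6% apart in either direction. The median log2 ratio was 1.76 over the 7 members and −0.0098 over all detected loci, whose lower and upper quartiles were −0.40 and 0.37. The 7 include Mir148a and Mir301, which chose the families, and Mir301b, which was not detected. Nothing is therefore read from the gap between these medians. Of the 6 detected members 3 were past 2-fold, namely Mir148a, Mir301 and Mir152. Scaling by library total alone moved the median of all detected loci to 0.16 and the loci past 2-fold from 25 higher and 19 lower to 40 higher and 14 lower.

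Mir301 had a log2 ratio of 2.24 (interval 2.10 to 2.37), a 4.71-fold higher value in replicate 2 and the highest of all detected loci. Its close relative Mir301b had a ratio of 2.14, with a wide interval of 0.75 to 3.86 set by its 5 reads in replicate 1. Mir130a, in contrast, had a ratio of 0.14 (interval 0.10 to 0.18), and Mir130b one of 0.10 (interval −0.05 to 0.26). With a pseudocount of 5 reads the ratio of Mir301b was 1.37 and that of Mir301 2.22, so the size of the difference at Mir301b is uncertain. Mir130a and Mir130b were within 1.5-fold.

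In the miR-148 family, Mir148a had a log2 ratio of 2.06 (interval 1.75 to 2.39), the fourth highest of the detected loci. Mir152 had 1.76 (interval 1.18 to 2.40), a 3.40-fold higher value at rank 6. Mir148b stayed below 2-fold, at 0.60 (interval 0.31 to 0.89, 1.52-fold). The member whose 3p strand differs from that of Mir148a by the fewest bases thus had the smaller ratio of its relatives.

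**Figure D2:**
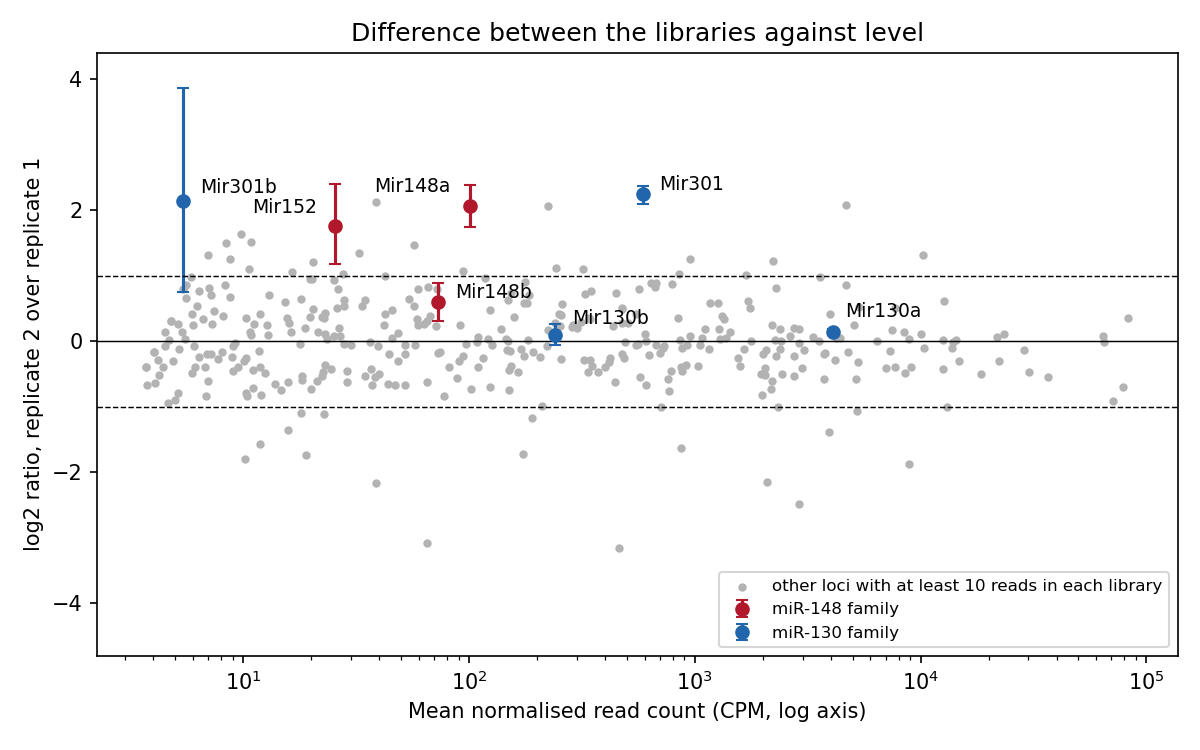
The log2 ratio of replicate 2 over replicate 1 against mean CPM (log axis), with the members in colour with exact binomial 95% intervals, other detected loci in grey and dashed lines at a 2-fold difference. Mir301, Mir301b, Mir148a and Mir152 lie between 1.76 and 2.24, Mir148b lies at 0.60, and Mir130a and Mir130b lie at 0.14 and 0.10 among the bulk of loci.

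Differences between relatives were next compared directly, as the ratio of their reads in replicate 2 over that in replicate 1, which does not depend on how the libraries are scaled. These differences rest on the ratios that chose the families and are given as descriptions, with intervals for counting error only. Mir148a shifted by 1.46 log2 units more than Mir148b (interval 1.03 to 1.90). Mir148b shifted less than Mir152 by a difference of −1.16 (interval −1.86 to −0.50). The difference between Mir148a and Mir152 was 0.30, with an interval of −0.42 to 0.98, so a difference of up to nearly 2-fold remains possible.

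In the miR-130 family the difference between Mir130a and Mir130b was 0.03 (interval −0.12 to 0.19). Mir130a differed from Mir301 by −2.10 (interval −2.24 to −1.96) and Mir130b differed from Mir301 by −2.13 (interval −2.34 to −1.92). Mir130b and Mir301b, although 257 nt apart on the same strand, differed by −2.03 (interval −3.76 to −0.63). Mir301 and Mir301b, on different chromosomes, differed by 0.10, and their interval of −1.63 to 1.49 is too wide to bound the difference below 2-fold.

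**Figure D3:**
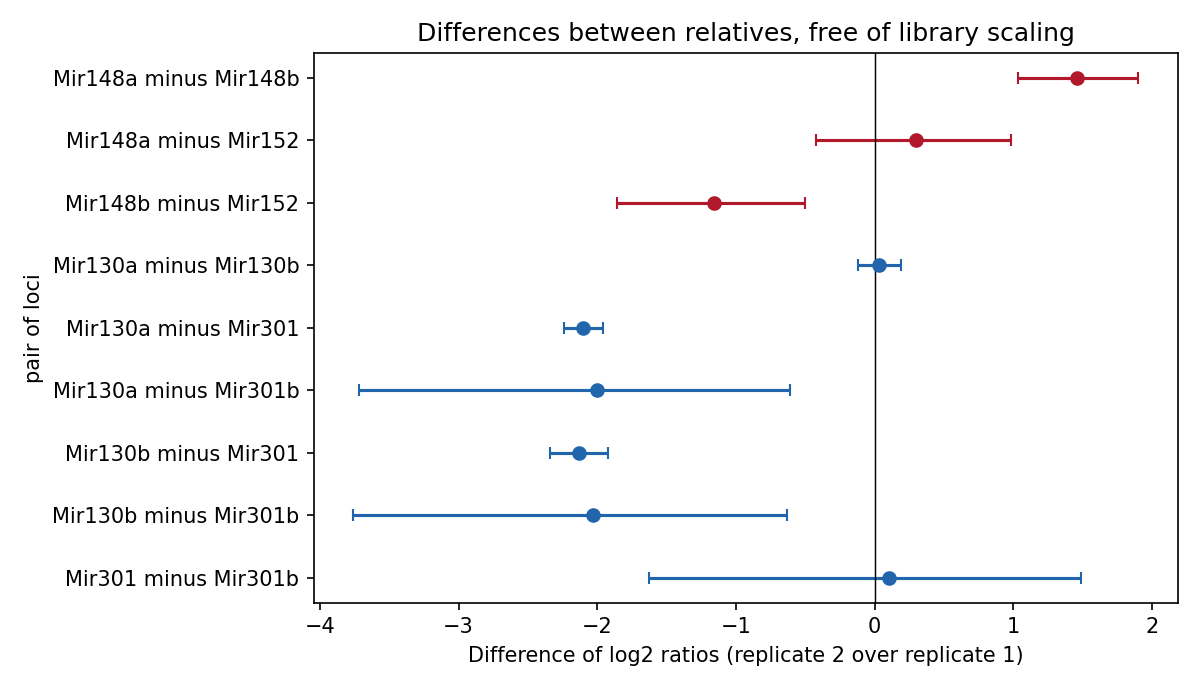
Difference of log2 ratios (replicate 2 over replicate 1) for the 9 pairs of loci within a family, with exact conditional 95% intervals for counting error. Mir130a and Mir130b lie 0.03 apart and Mir130a and Mir301 lie −2.10 apart, and the widest intervals belong to the pairs with Mir301b.

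Between the families, Mir148a and Mir301, the loci that chose the families, had log2 ratios that differed by −0.17 (interval −0.52 to 0.18).

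The make-up of each family's reads differed between the libraries along with these differences. Locus counts hold both arms, and the 5p strands carry other seeds. The shares and pools below are therefore of summed locus reads, not of strands with a single seed. Of the reads of the miR-148 family, Mir148a supplied 35.4% in replicate 1 (exact binomial 95% interval 29.7% to 41.4%) and 55.7% in replicate 2 (interval 52.5% to 58.8%). Mir148b supplied 54.0% and 30.8%, and Mir152 10.6% and 13.5%. In the miR-130 family, Mir130a supplied 90.0% of reads in replicate 1 and 78.1% in replicate 2, while Mir301 supplied 4.62% (interval 4.24% to 5.03%) and 17.2% (interval 16.6% to 17.7%). Mir130b supplied 5.39% and 4.57%.

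**Figure D4:**
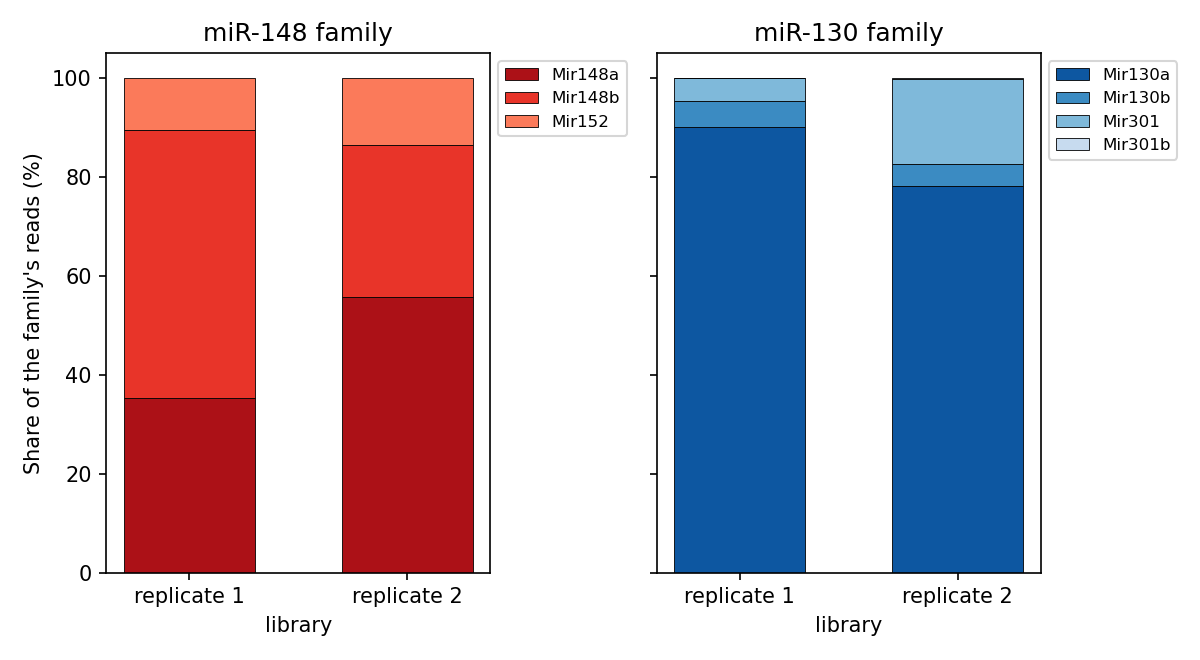
Share of the reads of each family (%) that came from each of its loci, in replicate 1 and replicate 2. Mir148a goes from 35.4% to 55.7% of its family and Mir301 from 4.62% to 17.2% of its own, and Mir301b (0.0451% and 0.156%) is too small to be seen.

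Summed over its 3 loci, the miR-148 pool was 99.99 CPM in the first library and 299.6 CPM in the second, a log2 ratio of 1.41 (interval 1.22 to 1.61). Without Mir148a it was 0.87 (interval 0.61 to 1.13). The miR-130 pool was 4045 CPM and 5778 CPM, a log2 ratio of 0.34 (interval 0.31 to 0.38), since most of its reads came from Mir130a. Without Mir130a the ratio was 1.47, and without Mir301 it was 0.14. Mir301, which chose the family, supplied 512 of the 1114 reads left without Mir130a in replicate 1. In replicate 2 it supplied 3182 of 4058. The miR-130 pool held 40.5 reads for each read of the miR-148 pool in replicate 1 and 19.3 in replicate 2.

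Loci outside the families with the most similar difference were sought among detected loci with a mean level within 4-fold of the member, by the gap between log2 ratios over the 2 libraries. For Mir148a, among 122 candidates, they were Mir1298, an intronic locus of the serotonin receptor gene Htr2c, with 214 and 1180 reads (log2 ratio 2.06), and the epithelial Mir200b, with 36 and 207 reads (2.12). For Mir301, among 128 candidates, they were again Mir1298 and, at a distance of 0.978 log2 units, Mir195a with 1419 and 4478 reads (1.26). With 2 libraries such likeness is a single difference and describes these libraries only.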

How the data were processed

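The authors deposited raw read counts for each microRNA gene (mm10, annotation M21, per the file list that accompanies them). The sources used here name no trimming settings, aligner or counter. From their values, the 3 unnamed columns count reads irrespective of strand, then those of the RNA strand, which were used, then those of the other strand. Library sizes leave out the rows for unmapped reads, reads mapped to several places (40.6% and 37.9% of reads) and reads on no microRNA gene. All 2202 identifiers matched GENCODE M21, and sequences come from RefSeq (GRCm38.p6).

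CPM was computed over gene-assigned reads. Log2 ratios used edgeR 4.0.16 TMM scaling (R 4.3.3) over loci with at least 10 reads in each library. Intervals came from scipy 1.17.1. The scaling was tested on simulated counts with as many loci raised as lowered, which cannot show how it does where changes are unbalanced. DESeq2 1.42.0 size factors, 2 library-total scalings, the column without strand, other read minimums (5, 50 and none), a pseudocount of 5 and a fold of 1.5 were alternatives for the ratios. Levels and shares were recomputed from each replicate alone, and levels also as CPM over all reads of the library and per nt of the locus. No molecular identifiers are stated, so reads are not independent molecules. With 1 group of 2 libraries no test was made.

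The members and lists were chosen with earlier results of these data known. Named loci are the 7 members, loci sharing their seeds, and for Mir148a and Mir301 the 2 loci outside the families with the closest ratio among those within 4-fold in level.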

Additional observations from a re-analysis of the deposited data

How the results depend on the processing

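Each of the 7 members stayed higher in replicate 2 under every alternative run for the ratios. The same number, 4, were at least 2-fold apart under each of these that kept the 2-fold limit. At a fold of 1.5, 5 were apart. The log2 ratio ranged from 2.00 to 2.24 for Mir148a, 2.22 to 2.41 for Mir301, 1.59 to 1.94 for Mir152, 0.58 to 0.77 for Mir148b, 0.13 to 0.31 for Mir130a and 0.10 to 0.28 for Mir130b. For Mir301b it fell to 1.37 with a pseudocount of 5, which pulls low counts together. The summed miR-130 ratio was 0.51 when scaled by library total and 0.44 when the 10 most abundant loci were left out of the total, against 0.34. The share of detected loci at least 2-fold apart, 11.3%, was 24.2% with no minimum, where loci of 1 read enter. The share at least 1.5-fold apart was 32.6%. The share of family reads from Mir148a was 35.4% or 55.7%, and that from Mir301 4.62% or 17.2%, when a single replicate was used. As CPM over all reads of the library, mean levels were 1396 for Mir130a (4076 CPM over gene-assigned reads), 198 for Mir301 (589 CPM) and 34.1 for Mir148a (101 CPM). No paired analysis was possible because the labels give 1 group. Depth limits Mir301b most, with 5 reads in replicate 1.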
